A study of Homo sapiens with 12 samples.

Results

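The 55 genes described here encode proteins of focal adhesions, the plaques that tie integrins to the actin cytoskeleton, and regulators of the actin filaments that end there. They were chosen by name as a functional module, with earlier results of these data known. Each was read through the non-control probes whose RefSeq transcript maps to it. All 55 were among the 25746 genes tested. The cells were PC-3, an established androgen-independent line from a prostate adenocarcinoma. The study asked how the kinase PIM1 and the transcription factor NFATC1, which PIM1 phosphorylates, act together on gene expression. The 12 samples fell into 6 groups of 2. The control cells carried a stably integrated empty pcDNA3.1 vector, and the PIM1 cells carried a stable PIM1 expression vector, both as pools of G418-selected cells. WT cells were the control line transiently transfected with wild-type NFATC1, and MM cells the same line with a multi-mutant NFATC1 whose PIM1 target serines and threonines were changed to alanine. PIM1 + WT and PIM1 + MM cells were the PIM1 line with the same NFATC1 plasmids. All cells were also given a Td-Tomato plasmid, and no NFATC1 plasmid is named for the control and PIM1 groups. Nothing states that the 2 samples of a group came from separate cultures, so the p-values below measure only the spread between these samples, which may be technical.

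Focal adhesions form where integrins bind the extracellular matrix. Talin and kindlin bind the integrin tails, vinculin, paxillin, zyxin and alpha-actinin link the plaque to actin, and FAK and Src help to set how fast an adhesion is built and taken apart. Formins and coronins extend and remodel filaments, calpain cleaves plaque proteins during adhesion turnover, and invasive carcinoma cells depend on this cycle to move.

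RNA was read on 6 two-colour arrays on 2 slides, one slide for each replicate number. Cy3 held control, WT and PIM1 + WT, Cy5 held PIM1, MM and PIM1 + MM, and no dye was swapped. PIM1 minus control, WT minus MM and PIM1 + WT minus PIM1 + MM were therefore read within arrays, and in each of them dye and group cannot be told apart. A fixed dye effect of a gene cancels in the difference between 2 such comparisons, and the other 4 comparisons were made within a dye. Values below are levels on a log2 scale after quantile normalisation, and a difference of 1 is 2-fold. A gene passed where its adjusted p was below 0.05 over all genes tested, and a 2-fold call also needed a difference of at least 1. No value of one gene is set against the level of another, because probes differ in brightness.

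Between 56.9% and 69% of spots were well above background in a channel. A spot of 54 of the 55 genes was well above background in all 12 channels, as was one of 14580 of all genes tested, so many of the genes used as background were dimmer than the members. The epithelial markers KRT8, KRT18, KRT19, EPCAM and ITGB4 were well above background in all 12 channels, and KLK3, DCN and LUM in none. The transcript of PIM1 lay between 9.85 and 10.22 in the samples without the PIM1 vector and between 9.90 and 10.36 in those with it, so these ranges overlapped and the array did not show the labelled overexpression (PIM1 minus control 0.25, limma adjusted p = 0.107). NFATC1 was 9.65 to 9.88 in the 4 samples given the mutant but 7.57 to 8.06 in the 4 given the wild type, against 7.56 and 7.60 in control. PIM1 + WT was 2.07 lower than PIM1 + MM in NFATC1 transcript. The study reports overexpression of PIM1 and/or NFATC1 in its cell samples by real-time qPCR, measured on the microarray samples. The groups are named by their labels throughout, and whether the probes lie in the transfected sequences was not tested. On one array, spots in rows 1 to 33 of 532 were dimmer in the Cy5 channel: PIM1 + MM replicate 2 lay below replicate 1 in these rows, with a median of replicate 2 minus replicate 1 of -0.42 against 0.03 elsewhere, while this median was -0.08 to 0.01 there in the other groups. Of the 153 spots of the members, 12 were in these rows, and they include the only spots of FHOD1 and ACTN3.

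NFAT proteins bind DNA at a GGAAA core, and the CArG box, a 10-base element that starts with CC and ends with GG around A and T bases, is bound by serum response factor, a regulator of cytoskeletal genes. The promoters of 5 members are shown. ZYX, MINK1 and PDLIM7 are among the members whose transcripts differed by over 2-fold between PIM1 + WT and PIM1 + MM. ACTG1 and FLNA are among those that hold a CArG box. Each runs 5′ to 3′ on the gene's strand from 250 bases before the start site to 50 after it, from RefSeq on GRCh38.p14. Capitals mark GGAAA, its complement TTTCC, or a CArG box. ZYX is at chr7:143381095-143381394 on the plus strand, MINK1 at chr17:4833090-4833389 on the plus strand, PDLIM7 at chr5:177497555-177497854 on the minus strand, ACTG1 at chr17:81512750-81513049 on the minus strand and FLNA at chrX:154374585-154374884 on the minus strand.
ZYX: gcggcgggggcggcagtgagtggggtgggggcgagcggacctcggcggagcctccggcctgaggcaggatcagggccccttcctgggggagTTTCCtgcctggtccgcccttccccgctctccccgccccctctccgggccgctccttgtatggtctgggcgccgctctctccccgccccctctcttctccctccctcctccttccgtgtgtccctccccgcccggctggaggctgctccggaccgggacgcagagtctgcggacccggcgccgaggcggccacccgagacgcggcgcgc
MINK1: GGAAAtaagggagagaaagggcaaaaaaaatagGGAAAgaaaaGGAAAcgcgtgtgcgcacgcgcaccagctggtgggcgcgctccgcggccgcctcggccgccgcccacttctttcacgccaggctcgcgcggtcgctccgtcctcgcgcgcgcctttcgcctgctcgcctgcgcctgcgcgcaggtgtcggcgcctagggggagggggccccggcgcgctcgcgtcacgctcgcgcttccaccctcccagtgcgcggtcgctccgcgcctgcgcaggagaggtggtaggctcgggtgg
PDLIM7: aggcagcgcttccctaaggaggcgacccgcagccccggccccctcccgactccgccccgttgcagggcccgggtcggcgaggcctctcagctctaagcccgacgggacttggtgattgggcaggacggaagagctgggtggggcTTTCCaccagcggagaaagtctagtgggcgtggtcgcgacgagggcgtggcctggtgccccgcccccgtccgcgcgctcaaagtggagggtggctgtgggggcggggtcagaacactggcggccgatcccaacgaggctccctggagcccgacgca
ACTG1: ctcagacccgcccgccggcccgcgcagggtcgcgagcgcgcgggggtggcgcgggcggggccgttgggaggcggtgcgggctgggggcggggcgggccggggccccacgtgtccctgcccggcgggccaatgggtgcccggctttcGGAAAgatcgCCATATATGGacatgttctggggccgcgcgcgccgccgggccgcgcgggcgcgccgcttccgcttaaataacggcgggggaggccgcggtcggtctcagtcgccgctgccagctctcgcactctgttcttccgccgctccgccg
FLNA: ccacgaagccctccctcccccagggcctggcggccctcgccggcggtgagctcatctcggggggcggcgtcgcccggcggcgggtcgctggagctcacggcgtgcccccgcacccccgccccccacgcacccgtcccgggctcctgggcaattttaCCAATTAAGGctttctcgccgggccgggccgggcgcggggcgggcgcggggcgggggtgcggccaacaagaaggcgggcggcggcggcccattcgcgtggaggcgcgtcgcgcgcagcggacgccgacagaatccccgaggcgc

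RefSeq promoters were found for 47 of the 55 members. GGAAA stood on either strand in 28 of these 47 (59.6%), against 61.4% of 27305 promoters of all genes, and in 13 of the 20 members with a promoter that passed as higher in PIM1 + WT minus PIM1 + MM (65.0%). Of the 7 members with a promoter and a 2-fold call there, 4 held GGAAA (57.1%), while INF2, ACTN4 and CAPN1, not shown, did not. MINK1 held it 3 times, from base -250, -217 and -207 relative to the start site, ZYX and PDLIM7 once each on the opposite strand and FLNA not at all. The core was thus about as frequent among these promoters as among promoters in general. CArG boxes, searched on both strands, stood in 4 of 47 members (8.51%: ROCK2, ACTG1, FLNA and CAPN2) against 1.29% of all promoters. In ACTG1 the box began at base -94 and overlapped no GGAAA core. These matches are letters in a window, not evidence of binding.

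Between wild-type and mutant NFATC1 in the PIM1 line, 7 of the 8 genes for actins, crosslinkers and calpains passed as higher with the wild type, as did 5 of the 12 plaque scaffold genes. In PIM1 + WT minus PIM1 + MM, 26 of 55 members passed (47.3%), against 16.0% of all genes tested and 27.0% of the genes well above background in every channel, called well-measured below. Of these, 23 were higher and 3 lower, while 8.54% of all genes were called higher and 7.50% lower. The members' median was 0.17 and that of all genes -0.03. A 2-fold call, made for 0.342% of all genes, was made for 8 members, ZYX, PDLIM7, MINK1, INF2, CORO1B, ACTN3, ACTN4 and CAPN1, all higher in PIM1 + WT. This count was 5 without PIM1 + MM replicate 2, where INF2 was 0.80, ACTN3 0.72 and ACTN4 0.96, and 6 without rows 1 to 33 in every channel, where INF2 was 0.22 and ACTN3 had no spot left. The study chose 7 members (MINK1, INF2, FHOD1, CAPN1, PXN, ACTN3 and CORO1B) for a table on this comparison in these samples, so their direction is not independent evidence. Of these 7, 6 passed, and among the other 48 members 20 passed, 17 higher and 3 lower, with 2-fold calls for ZYX, PDLIM7 and ACTN4. All 55 members were listed with earlier results of these data known, so these shares are not independent evidence either. The INF2 value compared different probes, as given below.

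Scaling bears on these counts. When the arrays were centred on their medians in place of quantile normalisation, only MINK1 passed in PIM1 + WT minus PIM1 + MM. Of all genes 0.0738% passed there, against 16.0% in the main fit. The 8 members at 2-fold stayed positive under each of the 4 scalings tried, and 25 of the 26 passing members kept their sign with median centring. RAC1 was the exception, at 0.01. With median centring the median of all genes was -0.11 in this comparison, 0.13 in PIM1 minus control and 0.14 in PIM1 + WT minus WT.

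Without PIM1, WT minus MM gave 1 passing member of 55 (1.82%), TLN1, which was higher, against 0.804% of all genes (0.555% higher and 0.249% lower) and 1.37% of well-measured ones. At an unadjusted p below 0.05 the count was 16. The test of the difference between the 2 settings, WT minus MM with PIM1 less WT minus MM without it, passed for 9 members (16.4%) against 2.18% of all genes and 3.77% of the well-measured ones. Of all genes 1.70% were called positive and 0.482% negative, and all 9 members were positive: TLN1, ZYX, PDLIM7, PAK4, MINK1, CFL1, ACTN1, ACTN4 and CAPN1. ZYX (1.07) and MINK1 (1.12) made 2-fold calls here, against 0.0505% of all genes. These counts come from a fit that takes the samples as independent, although WT and MM samples shared arrays and their deviations from the group means correlated at 0.497. When the fit blocked on array, as a fixed or random effect, 5 or 9 members passed in WT minus MM (2.03% or 4.77% of all genes) and 16 or 20 in the difference between the settings (5.66% or 9.62%). With median centring 0% of all genes passed in that difference. None of the members passed in that difference with median centring (3 at an unadjusted p below 0.05), and the count fell to 1 without WT replicate 1 or PIM1 + WT replicate 1, to 4 without WT replicate 2, and to 5 without MM replicate 1, MM replicate 2 or PIM1 + WT replicate 2.

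PIM1 minus control passed for 31 members (56.4%), 18 higher and 13 lower, against 25.0% of all genes and 40.0% of the genes well above background in every channel. Of all genes 12.6% were called higher and 12.4% lower. ZYX and FERMT1 made 2-fold calls, ZYX higher and FERMT1 lower, against 1.17% of all genes. With median centring 15 members passed, 1 higher and 14 lower, while 34.3% of all genes passed. Of the 18 members that had been higher, 10 turned negative: VCL, PTK2, CAV1, ILK, PARVB, PAK4, RAC1, CFL1, ACTB and CAPN1. The direction of most members called higher in this comparison is therefore tied to the scaling, while all 13 called lower stayed negative. Fitting only the 4 samples compared left 18 passing, against 12.5% of all genes.

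**Figure D1:**
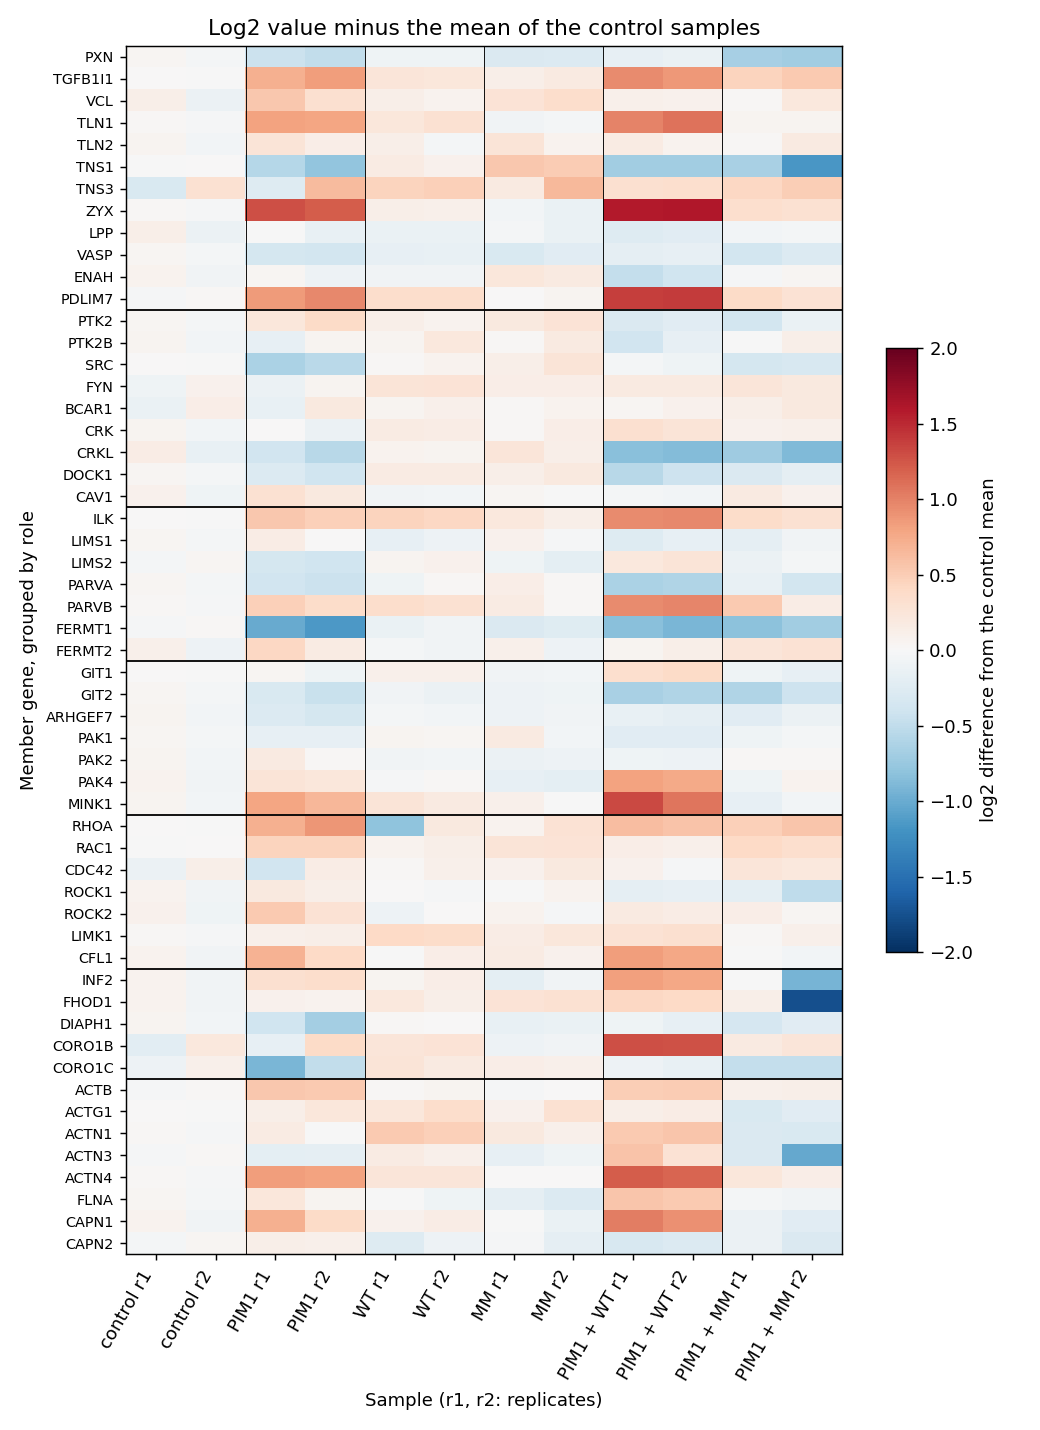
Log2 level of each of the 55 genes (vertical axis, grouped by role) in each of the 12 samples (horizontal axis), as the difference from the mean of the 2 control samples, with colour from -2 to 2. The PIM1 and PIM1 + WT columns are red for ZYX, PDLIM7, TLN1, ACTN4 and MINK1 and blue for FERMT1, and the darkest blue cell is FHOD1 in PIM1 + MM replicate 2. With median centring 10 genes called higher in PIM1 minus control turn negative.

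WT minus control passed for 3 members (5.45%), against 0.233% of all genes (0.0855% higher and 0.148% lower) and 0.391% of well-measured ones. All 3 were higher, and all 3 were lost when any one of the 4 samples was left out: ACTN1 0.50, ILK 0.44 and LIMK1 0.39. PIM1 + MM minus PIM1 passed for 19 members (34.5%) against 12.4% of all genes and 19.4% of well-measured ones. Of these, 3 were higher and 16 lower, where 5.20% and 7.16% of all genes were. No member passed with median centring, which turned no sign of the 19, or when only the 4 samples compared were fitted (3 and 22 at an unadjusted p below 0.05), and 11 members passed without PIM1 + MM replicate 2. Of all genes, 0.00388% passed in PIM1 + MM minus PIM1 with median centring and 0.0194% with only the 4 samples fitted. PIM1 + WT minus WT passed for 27 members (49.1%) against 27.3% of all genes and 44.3% of well-measured ones, 17 higher and 10 lower, where 13.3% and 14.0% of all genes were. ZYX, PDLIM7 and CORO1B made 2-fold calls there, against 1.28% of all genes. PIM1 + MM minus MM passed for 16 (29.1%), 3 higher and 13 lower, against 19.4% of all genes (10.0% higher and 9.38% lower) and 30.0% of well-measured ones, with a 2-fold call for TNS1 (0.878% of all genes). Under median centring 3 members passed in PIM1 + WT minus WT and 1 in PIM1 + MM minus MM, against 1.92% and 0.427% of all genes. The TNS1 value compared different probes, as given below.

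Across the 12 samples, 20 members had both PIM1 + WT samples above all 10 others (36.4%), against 9.43% of all genes and 14.6% of the well-measured ones. Of the 55 members, 44 passed in at least 1 of the 8 comparisons and 10 made a 2-fold call in at least 1. The 11 that passed in none were TLN2, TNS3, LPP, FYN, BCAR1, CRK, LIMS1, FERMT2, PAK2, CDC42 and FHOD1.

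Of the 12 plaque scaffold genes, 6 passed in PIM1 + WT minus PIM1 + MM, 5 higher and 1 lower, and 8 passed in PIM1 minus control, 5 higher and 3 lower. ZYX encodes zyxin, a LIM protein that gathers at strained adhesions and stress fibres. Its log2 levels were 12.51 and 12.47 (control), 13.77 and 13.70 (PIM1), 12.61 and 12.58 (WT), 12.43 and 12.36 (MM), 14.07 and 14.08 (PIM1 + WT) and 12.83 and 12.79 (PIM1 + MM). All 4 PIM1 and PIM1 + WT samples lay above the other 8, PIM1 + WT highest, and PIM1 + MM lay only a little above the lines without PIM1. ZYX was 1.27 ± 0.0562 (SE, n = 2 against 2) above PIM1 + MM in PIM1 + WT, a 2.41-fold difference (limma adjusted p = 1.75e-05), with 1.24 on slide 1 and 1.30 on slide 2. In WT minus MM it was 0.20 and did not pass. It was 1.25 higher in PIM1 than in control (limma adjusted p = 1.94e-06), and 0.51 with median centring, which did not pass.

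PDLIM7 encodes enigma, a PDZ and LIM protein of actin bundles. Its levels were 10.86 and 10.90 (control), 11.73 and 11.85 (PIM1), 11.24 and 11.23 (WT), 10.88 and 10.94 (MM), 12.27 and 12.28 (PIM1 + WT) and 11.26 and 11.16 (PIM1 + MM). PIM1 + WT stood above every other group, PIM1 next. PDLIM7 differed by 1.06 ± 0.0629 between PIM1 + WT and PIM1 + MM (limma adjusted p = 3.66e-05) and by 0.91 between PIM1 and control, and its 3 probes disagreed, as given below. TLN1 encodes talin 1, which switches integrins on and joins them to actin. Its levels were 10.22 and 10.18 (control), 10.99 and 10.99 (PIM1), 10.42 and 10.50 (WT), 10.12 and 10.16 (MM), 11.19 and 11.28 (PIM1 + WT) and 10.26 and 10.25 (PIM1 + MM). PIM1 + WT was highest in both replicates, and PIM1 next. TLN1 passed in each within-array comparison, at 0.98 in PIM1 + WT minus PIM1 + MM, 0.32 in WT minus MM (limma adjusted p = 0.0445) and 0.79 in PIM1 minus control.

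TGFB1I1 encodes Hic-5, a paxillin relative. Its levels were 11.28 and 11.27 (control), 11.98 and 12.12 (PIM1), 11.52 and 11.50 (WT), 11.40 and 11.45 (MM), 12.22 and 12.14 (PIM1 + WT) and 11.72 and 11.80 (PIM1 + MM). All 6 samples of the PIM1 line exceeded all 6 without PIM1. PXN encodes paxillin, a docking protein for FAK and vinculin. Its levels were 12.27 and 12.19 (control), 11.81 and 11.74 (PIM1), 12.14 and 12.15 (WT), 11.95 and 11.96 (MM), 12.07 and 12.09 (PIM1 + WT) and 11.56 and 11.53 (PIM1 + MM). Paxillin was lower in PIM1 than in control, by -0.46, and higher by 0.53 in PIM1 + WT than in PIM1 + MM, and the latter came from one of its probes alone.

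ENAH encodes Mena, which with VASP keeps filament ends growing. Its levels were 9.46 and 9.32 (control), 9.43 and 9.28 (PIM1), 9.31 and 9.32 (WT), 9.62 and 9.57 (MM), 8.92 and 8.99 (PIM1 + WT) and 9.36 and 9.43 (PIM1 + MM). PIM1 + WT was the lowest group, and ENAH was one of the 3 members that passed as lower there, at -0.44. Without rows 1 to 33 in PIM1 + MM replicate 2 it was -0.24 (limma adjusted p = 0.245), read from probe A_32_P87568 alone. The probe in these rows, A_23_P51397, was not dimmer there: it read 11.50 and 12.03 in PIM1 + MM. TNS1 encodes tensin 1, an actin-capping link to integrins. Its levels were 8.24 and 8.25 (control), 7.68 and 7.46 (PIM1), 8.41 and 8.33 (WT), 8.78 and 8.75 (MM), 7.55 and 7.54 (PIM1 + WT) and 7.59 and 7.08 (PIM1 + MM). TNS1 was lower in all 6 samples of the PIM1 line than in any without PIM1, at -0.68 in PIM1 minus control and -1.43 in PIM1 + MM minus MM. These values compared different probes: the middle probe was A_33_P3209491 without PIM1 and A_33_P3738458 in the PIM1 line. A_33_P3738458 itself read 9.48 and 9.32 in control and 7.68 and 7.46 in PIM1. Its spot is in rows 1 to 33, where dimming was seen only in PIM1 + MM replicate 2. Without these rows the TNS1 values were 0.12 and -0.26. Of the others, VCL (vinculin) passed in PIM1 minus control at 0.42 and VASP at -0.36, and TLN2, TNS3 and LPP passed nowhere. TNS3 levels in PIM1 were 10.35 and 11.23, a gap wider than any group difference of TNS3.

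**Figure D2:**
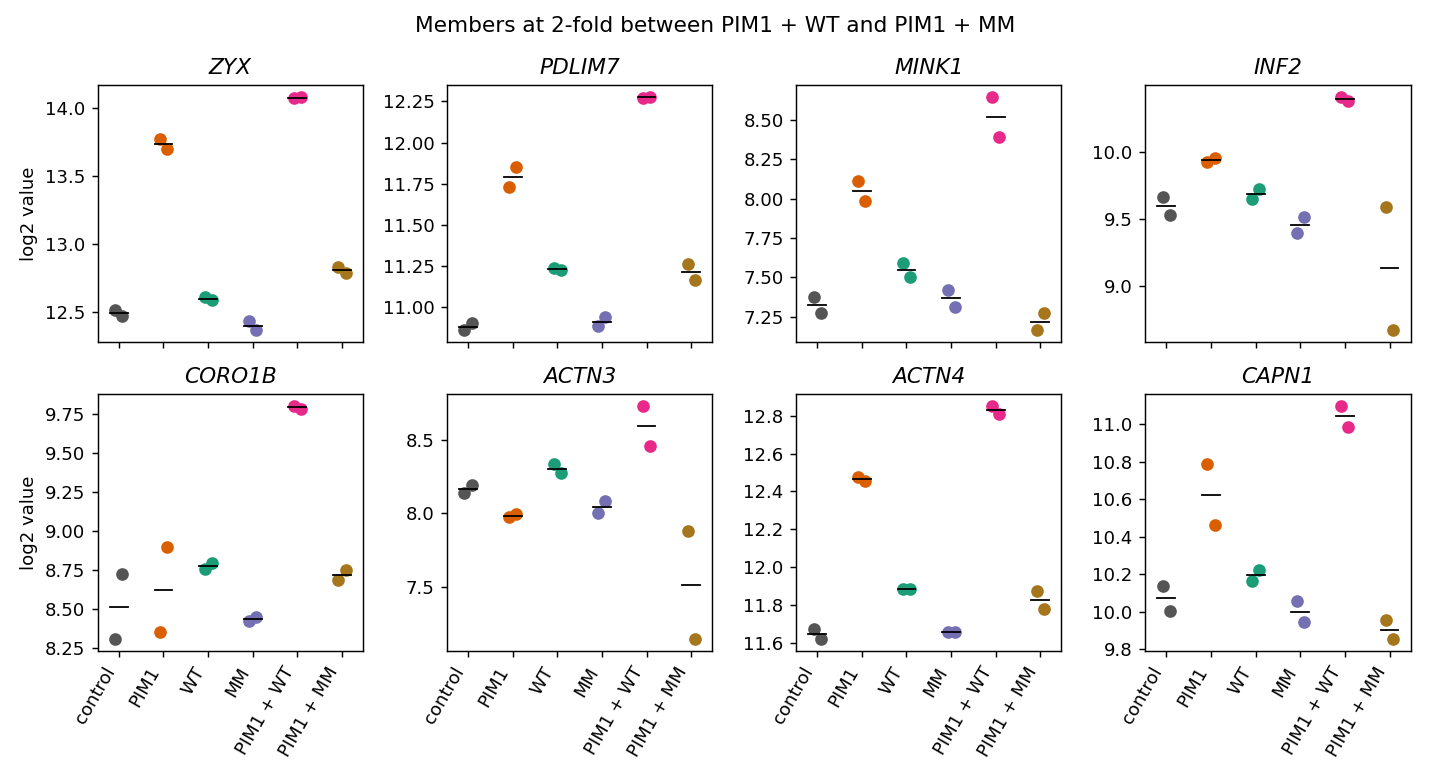
Log2 level of the 8 members with a 2-fold call in PIM1 + WT minus PIM1 + MM, 1 point for each of the 12 samples and a line at each group mean. In all 8 both PIM1 + WT points lie above every other point, and in INF2 and ACTN3 PIM1 + MM replicate 2 lies far below replicate 1.

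Of the 9 kinases and adaptors around FAK and Src, 1 passed in PIM1 + WT minus PIM1 + MM. By limma none passed in WT minus MM (0 at an unadjusted p below 0.05) or in the difference between the settings (3 at an unadjusted p below 0.05). SRC encodes the tyrosine kinase that acts with FAK on paxillin. Its levels were 10.06 and 10.06 (control), 9.44 and 9.53 (PIM1), 10.09 and 10.13 (WT), 10.18 and 10.32 (MM), 10.03 and 9.98 (PIM1 + WT) and 9.72 and 9.75 (PIM1 + MM). PIM1 held the 2 lowest values, at -0.58 against control, and SRC was 0.27 above PIM1 + MM in PIM1 + WT. PTK2, which encodes FAK, was 0.31 higher in PIM1 than in control, turning negative under median centring, and -0.56 in PIM1 + MM minus PIM1. PTK2B, which encodes the FAK relative PYK2, had the largest difference of this group in PIM1 + WT minus PIM1 + MM, -0.32 (limma adjusted p = 0.0765). Its levels were 8.33 and 8.24 (control), 8.12 and 8.34 (PIM1), 8.34 and 8.50 (WT), 8.30 and 8.46 (MM), 7.91 and 8.12 (PIM1 + WT) and 8.28 and 8.40 (PIM1 + MM). It did not pass there, and passed in PIM1 + WT minus WT at -0.41.

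CRKL encodes an adaptor downstream of FAK and BCAR1. Its levels were 10.29 and 9.98 (control), 9.76 and 9.58 (PIM1), 10.20 and 10.19 (WT), 10.38 and 10.25 (MM), 9.29 and 9.27 (PIM1 + WT) and 9.43 and 9.26 (PIM1 + MM). Both NFATC1-transfected PIM1 groups were below every other sample, and CRKL was -0.92 in PIM1 + WT minus WT and -0.97 in PIM1 + MM minus MM. DOCK1, an exchange factor for RAC1 that CRK proteins bind, was lower in the PIM1 line in the same comparisons, at -0.64 and -0.39. FYN, BCAR1 and CRK passed in no comparison. CAV1 (caveolin 1) passed once, at 0.25 in PIM1 minus control.

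ILK, PINCH and parvin proteins form a complex on the integrin tail, and kindlins help talin there. Of these 7 genes, 4 passed in PIM1 + WT minus PIM1 + MM and 5 in PIM1 minus control, 2 higher and 3 lower. ILK levels were 10.75 and 10.73 (control), 11.28 and 11.22 (PIM1), 11.19 and 11.16 (WT), 10.95 and 10.86 (MM), 11.69 and 11.69 (PIM1 + WT) and 11.11 and 11.04 (PIM1 + MM). PIM1 + WT was highest in both replicates, and ILK was 0.61 ± 0.0576 higher there than in PIM1 + MM (limma adjusted p = 0.00022). The parvins went opposite ways. PARVB levels were 9.09 and 9.04 (control), 9.55 and 9.44 (PIM1), 9.41 and 9.37 (WT), 9.23 and 9.09 (MM), 10.01 and 10.04 (PIM1 + WT) and 9.58 and 9.21 (PIM1 + MM). PARVA levels were 9.02 and 8.95 (control), 8.60 and 8.55 (PIM1), 8.90 and 9.01 (WT), 9.11 and 9.01 (MM), 8.35 and 8.38 (PIM1 + WT) and 8.84 and 8.62 (PIM1 + MM). In PIM1 + WT beta-parvin was the highest of the 6 groups and alpha-parvin the lowest, with differences from PIM1 + MM of 0.62 (limma adjusted p = 0.00543) and -0.36 (limma adjusted p = 0.0163).

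FERMT1 encodes kindlin 1, the epithelial kindlin. Its levels were 9.11 and 9.15 (control), 8.12 and 7.99 (PIM1), 9.00 and 9.06 (WT), 8.83 and 8.89 (MM), 8.30 and 8.22 (PIM1 + WT) and 8.31 and 8.44 (PIM1 + MM). Every sample of the PIM1 line was below every sample without PIM1, and FERMT1 was -1.07 ± 0.0716 in PIM1 minus control (limma adjusted p = 1.55e-05), a call kept under all 21 alternatives. LIMS2, which encodes PINCH-2, was 9.24 and 9.31 (control), 8.93 and 8.87 (PIM1), 9.33 and 9.35 (WT), 9.19 and 9.08 (MM), 9.49 and 9.53 (PIM1 + WT) and 9.16 and 9.24 (PIM1 + MM). PIM1 held its lowest values, and this rested on probe A_33_P3268304. That probe gave -0.72 in PIM1 minus control, and A_33_P3268181 gave -0.03. The gain of 0.31 in PIM1 + WT over PIM1 + MM rested on A_33_P3268181 alone. LIMS1 and FERMT2 passed in no comparison.

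GIT and PIX proteins bring PAK kinases to adhesions, and MINK1 is a kinase of the Ste20 family. Of these 7 genes, 3 passed in PIM1 + WT minus PIM1 + MM, all higher. MINK1 had the largest difference of any member, and the study's table holds it. Its levels were 7.38 and 7.28 (control), 8.11 and 7.99 (PIM1), 7.59 and 7.50 (WT), 7.42 and 7.31 (MM), 8.65 and 8.39 (PIM1 + WT) and 7.16 and 7.27 (PIM1 + MM). Both PIM1 + WT values were above all others, PIM1 next, and the PIM1 + WT samples differed from each other by more than those of other groups. MINK1 was 1.30 ± 0.0962 above PIM1 + MM in PIM1 + WT, 2.46-fold (limma adjusted p = 7.76e-05), with 1.49 on slide 1 and 1.12 on slide 2, and it passed under all 20 alternatives. WT minus MM was 0.18 without PIM1.

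PAK4 levels were higher in both PIM1 + WT samples (8.97 and 8.91) than in all others (7.97 to 8.42), and the difference from PIM1 + MM was 0.78. GIT1 levels were 6.70 and 6.67 (control), 6.73 and 6.60 (PIM1), 6.79 and 6.79 (WT), 6.61 and 6.63 (MM), 7.02 and 7.07 (PIM1 + WT) and 6.60 and 6.53 (PIM1 + MM). PIM1 + WT was again highest, by 0.48 over PIM1 + MM. GIT2 levels were 9.52 and 9.44 (control), 9.18 and 9.02 (PIM1), 9.41 and 9.36 (WT), 9.37 and 9.39 (MM), 8.82 and 8.88 (PIM1 + WT) and 8.88 and 9.07 (PIM1 + MM). GIT2 ran the other way, with the 6 samples of the PIM1 line lowest, at -0.38 in PIM1 minus control. This fall rested on probe A_23_P335848, which gave -0.70 there. The other probe, A_23_P204436, gave -0.05, with 7.74 and 7.67 in control and 7.76 and 7.55 in PIM1. ARHGEF7 (beta-PIX) passed once, at -0.31 in PIM1 minus control, PAK1 once, at -0.28 in PIM1 + WT minus WT, and PAK2 nowhere.

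RHOA, RAC1, CDC42, ROCK1, ROCK2, LIMK1 and CFL1 act on contraction and protrusion. Of these 7 genes, 3 passed in PIM1 + WT minus PIM1 + MM, and 4 in PIM1 minus control, all higher. CFL1 encodes cofilin 1, which severs filaments. Its levels were 13.78 and 13.63 (control), 14.40 and 14.10 (PIM1), 13.70 and 13.84 (WT), 13.87 and 13.79 (MM), 14.54 and 14.48 (PIM1 + WT) and 13.70 and 13.65 (PIM1 + MM). PIM1 + WT was highest, at 0.84 over PIM1 + MM (limma adjusted p = 0.000841). One of 2 probes was lost on the array of control and PIM1 replicate 1, and with the probe read in all channels the difference was 0.79. LIMK1, the kinase that switches cofilin off, was 11.10 and 11.06 (control), 11.18 and 11.20 (PIM1), 11.48 and 11.45 (WT), 11.22 and 11.30 (MM), 11.37 and 11.40 (PIM1 + WT) and 11.10 and 11.18 (PIM1 + MM). Both WT values were the highest of LIMK1, and it was 0.25 above PIM1 + MM in PIM1 + WT. RAC1, which drives lamellipodia, was 12.43 and 12.45 (control), 12.89 and 12.88 (PIM1), 12.51 and 12.56 (WT), 12.70 and 12.71 (MM), 12.58 and 12.55 (PIM1 + WT) and 12.84 and 12.77 (PIM1 + MM). RAC1 was below PIM1 + MM in PIM1 + WT, at -0.24 (limma adjusted p = 0.0146), or 0.01 under median centring.

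RHOA, which drives stress fibres, read 12.41 and 13.41 in WT, a spread wider than its difference in any of the 8 comparisons, and its difference of 0.80 in PIM1 minus control passed (limma adjusted p = 0.0432). The kinase ROCK2 was 0.41 higher in PIM1 than in control. ROCK1 levels were 9.20 and 9.06 (control), 9.33 and 9.24 (PIM1), 9.14 and 9.10 (WT), 9.12 and 9.20 (MM), 8.94 and 8.96 (PIM1 + WT) and 8.93 and 8.63 (PIM1 + MM). The lowest value was PIM1 + MM replicate 2, and one of its probes lies in the dim rows. CDC42 levels were 11.05 and 11.28 (control), 10.78 and 11.32 (PIM1), 11.19 and 11.27 (WT), 11.26 and 11.36 (MM), 11.25 and 11.14 (PIM1 + WT) and 11.40 and 11.37 (PIM1 + MM). Its groups overlapped almost throughout, and its probes did not agree.

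Of the 5 formin and coronin genes, 2 passed in PIM1 + WT minus PIM1 + MM, both in the study's table. CORO1B encodes a coronin that frees Arp2/3 branches at the cell front. Its levels were 8.31 and 8.72 (control), 8.35 and 8.90 (PIM1), 8.76 and 8.79 (WT), 8.42 and 8.45 (MM), 9.80 and 9.79 (PIM1 + WT) and 8.69 and 8.75 (PIM1 + MM). Both PIM1 + WT values were above all others, and CORO1B was 1.07 ± 0.17 above PIM1 + MM (limma adjusted p = 0.00303). The formin INF2, which both builds and cuts filaments, was 9.66 and 9.53 (control), 9.92 and 9.95 (PIM1), 9.65 and 9.72 (WT), 9.39 and 9.52 (MM), 10.41 and 10.37 (PIM1 + WT) and 9.59 and 8.67 (PIM1 + MM). PIM1 + WT was highest, and PIM1 + MM replicate 2 was far below replicate 1. INF2 differed by 1.26 (limma adjusted p = 0.00578), with 0.82 on slide 1 and 1.70 on slide 2, and by 0.23 (limma adjusted p = 0.106) without the dim rows in that channel. The 1.26 compared different probes of unlike brightness. The middle of its 3 probes was A_23_P218131 in PIM1 + WT and A_23_P394836 in PIM1 + MM. FHOD1, a formin of stress fibres, read 10.03 and 10.01 in PIM1 + WT and 9.73 and 7.86 in PIM1 + MM. Its difference of 1.23 did not pass (limma adjusted p = 0.099), and it was 0.29 (limma adjusted p = 0.0446) without the dim rows, with one PIM1 + MM sample left.

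CORO1C levels were 11.95 and 12.17 (control), 11.15 and 11.57 (PIM1), 12.32 and 12.25 (WT), 12.19 and 12.16 (MM), 11.96 and 11.92 (PIM1 + WT) and 11.58 and 11.59 (PIM1 + MM). PIM1 was lowest in both replicates, by -0.70 against control. DIAPH1, which encodes the formin mDia1, was 10.15 and 10.03 (control), 9.69 and 9.41 (PIM1), 10.11 and 10.10 (WT), 9.93 and 9.95 (MM), 10.00 and 9.92 (PIM1 + WT) and 9.76 and 9.87 (PIM1 + MM). It was also lowest in PIM1, at -0.53 against control, and did not pass between PIM1 + WT and PIM1 + MM.

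Of the 8 genes for actins, their crosslinkers and calpains, 7 passed as above PIM1 + MM in PIM1 + WT, and in PIM1 + MM minus PIM1, where 6 passed, all 6 were lower. ACTN4 encodes alpha-actinin 4, a crosslinker of filament bundles. Its levels were 11.67 and 11.62 (control), 12.48 and 12.45 (PIM1), 11.89 and 11.88 (WT), 11.66 and 11.66 (MM), 12.85 and 12.81 (PIM1 + WT) and 11.87 and 11.78 (PIM1 + MM). PIM1 + WT was highest and PIM1 next, with little spread between replicates. ACTN4 was 1.01 ± 0.0568 above PIM1 + MM in PIM1 + WT (limma adjusted p = 3.51e-05), with 0.98 and 1.03 on the slides.

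ACTN1 encodes alpha-actinin 1. Its levels were 13.60 and 13.56 (control), 13.74 and 13.57 (PIM1), 14.10 and 14.06 (WT), 13.78 and 13.69 (MM), 14.10 and 14.13 (PIM1 + WT) and 13.29 and 13.27 (PIM1 + MM). WT and PIM1 + WT held the 4 highest values, and PIM1 + MM was lowest. ACTN1 was 0.83 above PIM1 + MM in PIM1 + WT and 0.50 above control in WT. ACTN3, the fast-muscle alpha-actinin, was 8.14 and 8.19 (control), 7.97 and 7.99 (PIM1), 8.33 and 8.27 (WT), 8.0 and 8.08 (MM), 8.73 and 8.46 (PIM1 + WT) and 7.88 and 7.14 (PIM1 + MM). Its only spot is in the dim rows, and its difference of 1.09 became 0.72 (limma adjusted p = 0.00336) without that channel of the array.

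CAPN1 encodes the large subunit of calpain 1, and the study's table holds it. Its levels were 10.14 and 10.01 (control), 10.79 and 10.46 (PIM1), 10.17 and 10.22 (WT), 10.06 and 9.94 (MM), 11.10 and 10.99 (PIM1 + WT) and 9.95 and 9.85 (PIM1 + MM). Both PIM1 + WT values were above all others. CAPN1 was 1.14 ± 0.107 higher there than in PIM1 + MM, 2.2-fold (limma adjusted p = 0.000221). CAPN2, of calpain 2, did not pass in this comparison. FLNA encodes filamin A, which crosslinks actin into gels. Its levels were 10.67 and 10.60 (control), 10.86 and 10.68 (PIM1), 10.63 and 10.55 (WT), 10.45 and 10.36 (MM), 11.19 and 11.16 (PIM1 + WT) and 10.59 and 10.57 (PIM1 + MM). FLNA was 0.60 above PIM1 + MM in PIM1 + WT. The cytoplasmic actins ACTB and ACTG1 were each 0.39 higher there, and ACTB was also 0.53 higher in PIM1 than in control, turning negative under median centring.

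**Figure D3:**
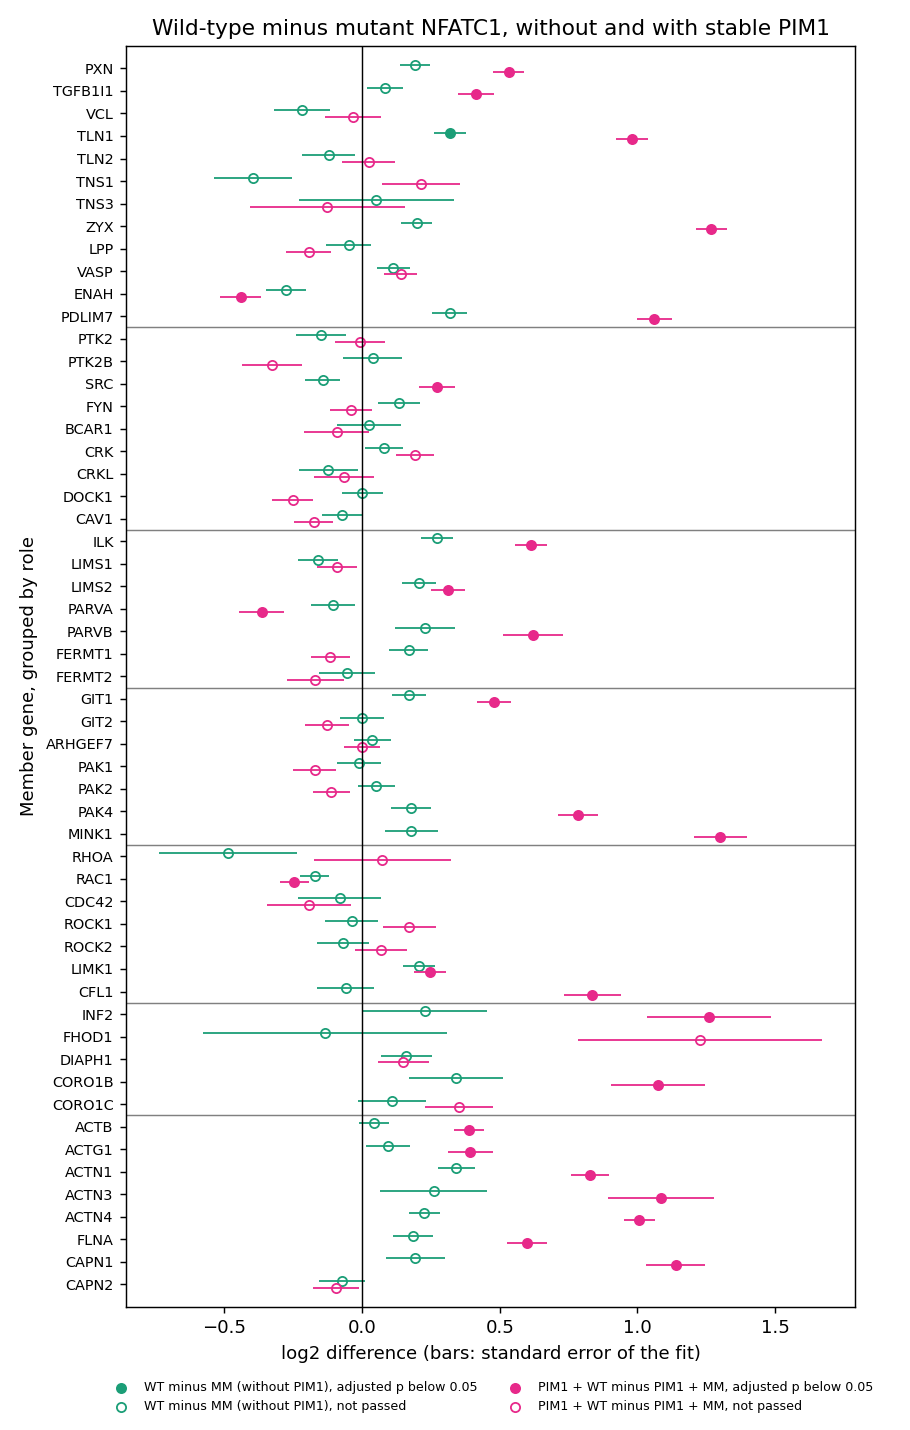
Log2 difference between wild-type and mutant NFATC1 for each of the 55 genes, without PIM1 (green) and with PIM1 (pink), with standard errors of the fit as bars and filled points where the adjusted p is below 0.05. Of the pink points 26 are filled and of the green points 1, TLN1. With median centring 1 pink point, MINK1, would be filled, where 0.0738% of all genes passed, and RAC1 would turn to 0.01.

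The 9 members that passed the test of the difference between the settings came from 4 role groups: TLN1, ZYX and PDLIM7 of the plaque, PAK4 and MINK1, CFL1, and ACTN1, ACTN4 and CAPN1. For ZYX the within-slide values of this difference were 1.06 and 1.07, and for MINK1 1.32 and 0.92. ZYX passed under 23 of 24 alternatives, MINK1 under 20 and CAPN1 under 15.

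**Figure D4:**
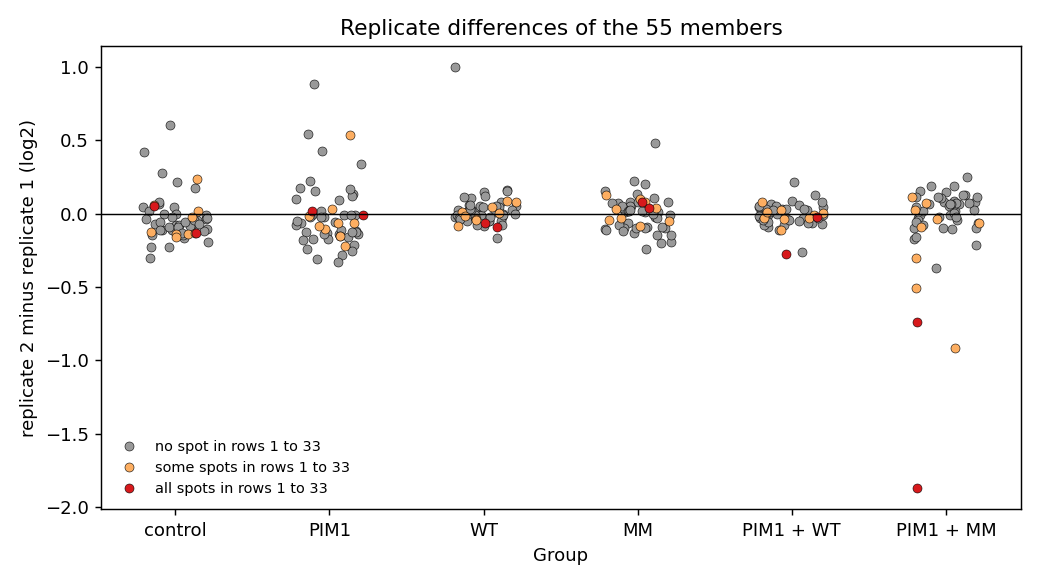
Replicate 2 minus replicate 1 on the log2 scale for each of the 55 genes in each of the 6 groups, coloured by how many of a gene's spots lie in rows 1 to 33. In PIM1 + MM the lowest point is FHOD1 and the next 2 are INF2 and ACTN3, all with spots in these rows, and in WT the highest is RHOA, with none.

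Of the members, 34 had 1 probe and 21 had several. In PIM1 + WT minus PIM1 + MM the probes of 9 of these 21 genes lay more than 0.5 apart, and in PIM1 minus control those of 8. Counted by probe, 32 of the 81 member probes passed, against 17.1% of all probes. For PXN, probe A_33_P3380098 on NM_001243756 gave 1.08 and A_24_P184555 on NM_002859 gave -0.02. The second probe read 16.11 and 15.97 in control and 15.25 and 15.25 in PIM1, so it fell with PIM1 by -0.79 and was level between the NFATC1 forms in the PIM1 line, while in WT minus MM it was 0.19 and did not pass (limma adjusted p = 0.234). For PDLIM7, the probes A_23_P144896 and A_33_P3217213 on NM_005451 gave 1.11 and 1.40, and A_33_P3384562 on NM_213636 gave -0.06. The middle probe was A_33_P3384562 in PIM1 + WT replicate 1 (12.27) and A_23_P144896 in replicate 2 (12.28).

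For INF2, A_23_P394836 in the dim rows gave 1.32, A_33_P3391865 outside them 0.77 (limma adjusted p = 0.000414), and A_23_P218131 -0.35, so 2 of 3 probes were higher and the third was not. LIMS2 probes gave 0.78 and -0.16 on the same transcript, FLNA probes 1.14 and 0.06, and GIT1 probes 0.78 and 0.18. The CDC42 probes gave -0.69, -0.01 and -0.19, the DIAPH1 probes 0.43 and -0.13, and those of ROCK1 0.52 and -0.17. In PIM1 minus control, FERMT1 probes fell by -1.54 and -0.61, and those of TNS1 gave -1.83, 0.15 and 0.09, the last from a probe well above background in no channel. The CORO1B probe A_33_P3360684 read 7.40 and 8.27 in control, a spread that its other probe, A_23_P104583 at 9.21 and 9.18, did not show, and they gave 1.14 and 1.01 in PIM1 + WT minus PIM1 + MM.

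**Figure D5:**
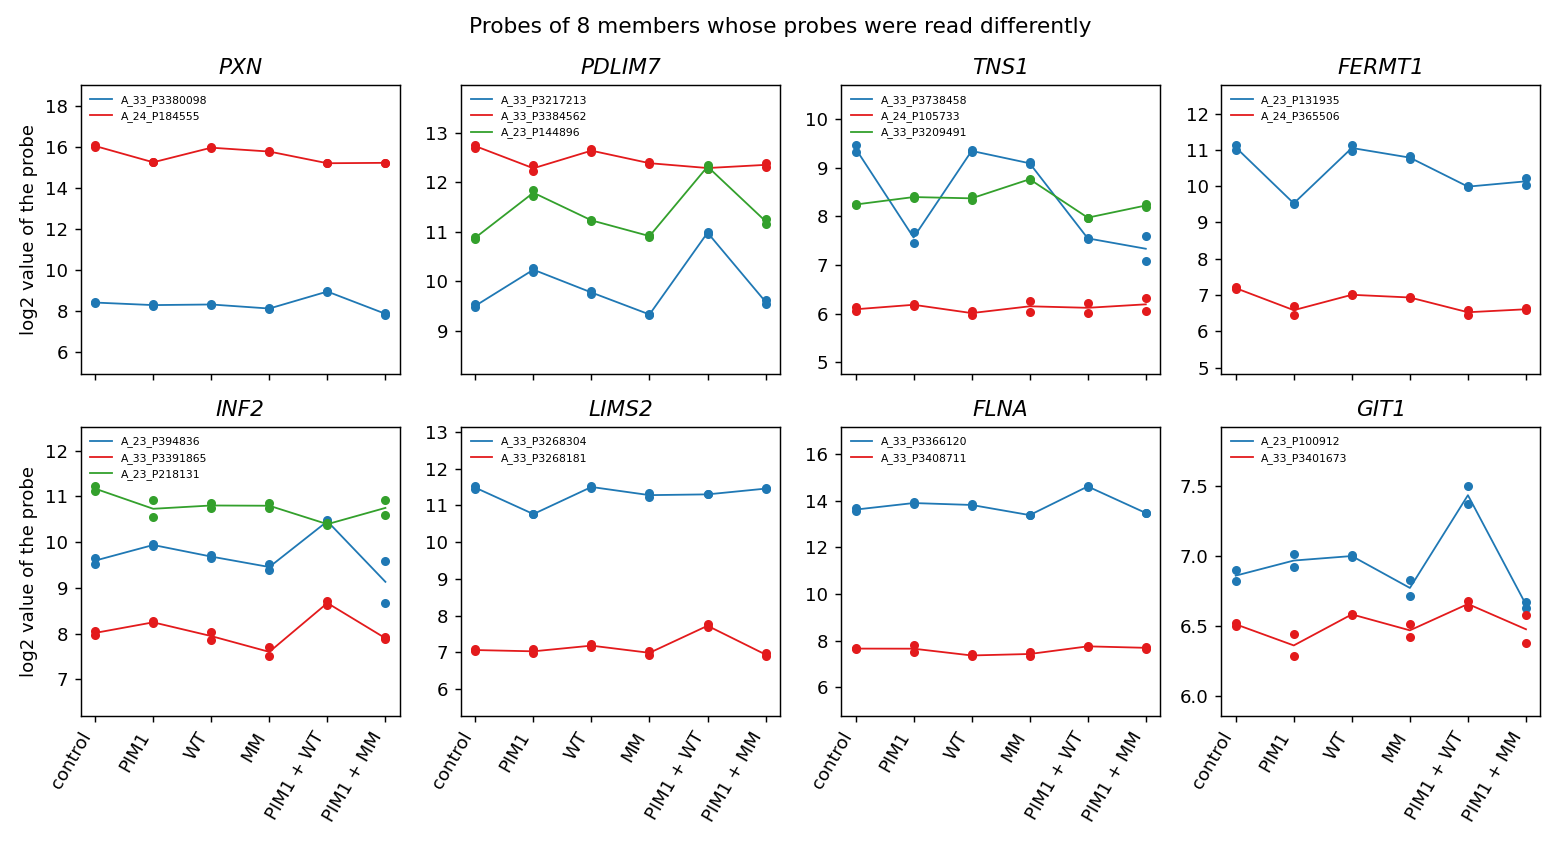
Log2 level of each probe of 8 members in the 6 groups, 1 point for each sample and a line through the group means, 1 colour for each probe. In PXN, PDLIM7, LIMS2 and FLNA one probe is above PIM1 + MM in PIM1 + WT while another stays nearly level between them, and in TNS1 only A_33_P3738458 falls in PIM1.

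Other genes of the same pathway were taken from a list of 137, of which 131 were tested. This list too was made with earlier results of these data known. In PIM1 + WT minus PIM1 + MM 48 passed (36.6%), 32 higher and 16 lower, against 16.0% of all genes and 27.0% of well-measured ones. In PIM1 minus control 56 passed (42.7%), 36 higher and 20 lower, against 25.0% of all genes and 40.0% of well-measured ones. MYL9, a regulatory myosin light chain, was 1.03 higher in PIM1 + WT, FLNC (filamin C) 1.01 and ARHGDIA 0.99. CFL2 (cofilin 2) was lower at -0.47, PLS3 (plastin 3) at -0.37 and the formin FHOD3 at -0.35. In PIM1 minus control TNS4 was 1.10, PFN2 1.06 and PFN1 0.92, the last 2 profilins, while the Src-family kinase LYN was -1.25, FHOD3 -0.83 and the phosphatase PTPN11 -0.76. The test of the difference between the settings passed for 11 (8.4%), all positive, against 2.18% of all genes and 3.77% of well-measured ones, among them FLNC, MYL9, PFN1 and ARHGDIA.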

How the data were processed

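Per the labels and the deposited scanner files, RNA from 12 PC-3 samples was hybridised in pairs to 6 two-colour Agilent 4x44K human arrays and read with Feature Extraction 11.0.1.1. The authors deposited raw and processed intensity values for each spot and a table of quantile-normalised log2 values. Each sample's raw median intensity in its own dye was taken, outlier spots were removed, log2 spot values were averaged per probe, and a probe was kept if it exceeded the negative controls' 90th percentile in at least 2 of 12 channels. After quantile normalisation a gene was the median of its probes. Separately, log2 raw medians of the deposited spots were quantile-normalised without outlier removal, averaging or filtering. These spot values lay within 0.0844 of the deposited log2 table, and the gene values were not compared with it. A model with one mean per group was fitted to all 12 samples with limma 3.58.1 in R 4.3.3, with Benjamini-Hochberg adjustment over all 25746 genes, following the study's use of limma. Channel medians of raw intensity were 86 to 139 in Cy3 and 176 to 318 in Cy5. Precision is limited by there being only 6 arrays. On simulated data, 90.5% to 98.5% of 200 genes changed by 1 on the log2 scale were recovered, with 6 to 11 unchanged genes passing of 25588 simulated. The simulated samples were independent, without the correlation within arrays (0.416 in the data) and without scaling differences. These figures therefore do not give the error rates in the real data. The members, roles and pathway list were chosen with earlier results of these data known. Values are given by sample for members with a 2-fold call, for the 3 largest passing in each direction per comparison, for the largest per role, and for those whose probes lay over 0.5 apart, and pathway genes are named by the 3 largest in each direction. Other background corrections, scalings, filters, probe summaries, slide and array blocks and left-out samples were tried. Same-numbered samples shared a slide, but their deviations from the group means correlated at 0.051 to 0.833 over 15 pairs of groups, over 0.1 in 7 and 0.345 to 0.833 in the 3 pairs of groups that shared arrays, so the slide numbers were not taken as pairs and array was tried as a block.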

Additional observations from a re-analysis of the deposited data

Results flagged for a closer look

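For 9 members the WT minus MM difference with PIM1 differed from that without PIM1, by a test of the difference itself (an interaction term in limma, adjusted p below 0.05). On the log2 scale the difference between the settings was 1.12 for MINK1, 1.07 for ZYX, 0.94 for CAPN1, 0.90 for CFL1, 0.78 for ACTN4, 0.74 for PDLIM7, 0.66 for TLN1, 0.61 for PAK4 and 0.48 for ACTN1. All were positive, and the limma adjusted p ranged from 0.00239 for ZYX to 0.0405 for ACTN1. These are gene values, and the 3 probes of PDLIM7 ran from -0.32 to 0.96. Cy3 held the wild type and Cy5 the mutant in both settings, so a fixed dye effect of a gene cancels in this difference.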

How the results depend on the processing

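Of 1150 alternative values for 57 gene-and-comparison results, 974 kept direction and side of the threshold, 147 fell below it, 9 rose above it and 20 reversed, and the cause was not tested. Members passing under median centring were 15 in PIM1 minus control, 1 in PIM1 + WT minus PIM1 + MM (3 of its probes), 3 in PIM1 + WT minus WT, 1 in PIM1 + MM minus MM, and 0 in WT minus MM, the interaction, WT minus control and PIM1 + MM minus PIM1. Of all genes 34.3%, 0.0738%, 1.92% and 0.427% passed in the first 4 of these, and 0% to 0.00388% in the others. Fitting only the groups compared gave 18 in PIM1 minus control and 0 in WT minus MM, WT minus control and PIM1 + MM minus PIM1. Of all genes 12.5% passed in the first of these and 0.00388% to 0.0194% in the others. For WT minus MM (1 member) normexp gave 0, loess 3, the deposited values 2, a filter in all channels 5, the probe with the highest mean 2, array as a fixed block 5 and as a random block 9. For the interaction (9 members) loess and the filter in all channels gave 15 each, and array as a fixed block 16 and as a random block 20. For WT minus control (3 members) normexp, processed signals and leaving out the array of control and PIM1 replicate 1 gave 0, and the filter in all channels 6. With slide as a replicate block 32 members passed in PIM1 minus control (24 to 28 without 1 replicate), 27 in PIM1 + WT minus PIM1 + MM (19 to 25; 35 probes with the block), 2 in WT minus MM (0 to 1), 12 in the interaction (1 to 13), 3 in WT minus control (0), 21 in PIM1 + MM minus PIM1 (11 to 19), 27 in PIM1 + WT minus WT (20 to 23) and 17 in PIM1 + MM minus MM (12 to 18). Where 1 replicate was left out, the spread of the single sample left was taken from the other groups. Signs reversed as follows. In PIM1 minus control INF2 was -0.20 with median centring, -0.44 with the probe of highest mean, and -0.10 and -0.11 without rows 1 to 33 in 1 or every channel, PDLIM7 -0.45 with the highest probe, and TNS1 0.12 without the rows in either way. In PIM1 + WT minus PIM1 + MM the highest probe gave DIAPH1 -0.13, INF2 -0.35, LIMS2 -0.16, PDLIM7 -0.064, PXN -0.019 and ROCK1 -0.17, median centring CDC42 0.11 and RAC1 0.0097, and removal of the rows ROCK1 -0.15 and -0.16. The highest probe also turned INF2 to 0.019 in PIM1 + MM minus PIM1 and PDLIM7 to -0.35 in PIM1 + WT minus WT and -0.034 in PIM1 + MM minus MM. Reading only probes present in all 12 channels was added after seeing the data. Signal over background limits GIT1 and the second FERMT1 probe, read above background in part of the channels.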
